A study of Rattus norvegicus with 6 samples.

Results

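The data on 4 microRNA (miRNA) families of neurons, miR-124, miR-128, miR-137 and miR-153, were read from 6 small RNA sequencing libraries of rat cortical neurons. The members were chosen by name, as every mature miRNA that the files list under these 4 names without a locus number, which gave 7 of the 649 listed miRNAs: rno-miR-124-3p, rno-miR-124-5p, rno-miR-128-3p, rno-miR-137-3p, rno-miR-137-5p, rno-miR-153-3p and rno-miR-153-5p. The prefix rno, for rat, is left out of most names below. Primary neurons were prepared from the cortex of Sprague-Dawley rat embryos of both sexes at embryonic day 18 and were kept for 7 days in vitro according to the sample labels, from which a figure legend of the study differs by 1 day. The number of embryos behind each culture is not given in the sources used here. The cortical cultures were given fluorodeoxyuridine, which stops the division of non-neuronal cells, but such cells that were already present could remain. Neurons in 3 BDNF libraries had received 100 ng/ml brain-derived neurotrophic factor (BDNF), a ligand of the receptor TrkB, for 20 min, and neurons in 3 control libraries had received its vehicle, 0.1% bovine serum albumin. The labels number the libraries of each condition from 1 to 3.

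A miRNA is cut by Dicer from a hairpin precursor as a short duplex of a 5p arm and a 3p arm, of which 1 strand is usually kept by an Argonaute protein as the guide and the other is mostly degraded. The guide finds target messenger RNAs mainly through its seed, bases 2 to 8. miR-124 is a classical neuronal miRNA that represses non-neuronal transcripts, among them the splicing factor gene Ptbp1. miR-128 is enriched in brain and dampens neuronal excitability, miR-137 acts in neurogenesis and in dendrite and synapse development, and miR-153 is enriched in brain and targets genes of synaptic vesicle release. For all 4 families the 3p arm is the usual guide.

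The mature sequences are shown because the seed defines what each family can recognise and because the arms are compared with each other below. Sequences were taken from RefSeq on the rat assembly GRCr8, in which 583 of the 649 listed names and 5 of the 7 members had an entry; miR-124-3p and miR-124-5p are named only. The seed is in capitals, and all sequences are written 5′ to 3′.
rno-miR-128-3p: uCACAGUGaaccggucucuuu
rno-miR-137-3p: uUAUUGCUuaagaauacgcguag
rno-miR-137-5p: aCGGGUAUucuuggguggauaa
rno-miR-153-3p: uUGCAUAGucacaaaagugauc
rno-miR-153-5p: gUCAUUUUugugauguugcagcu
No listed miRNA with a RefSeq sequence shared a seed with any of these 5 members, and the 5 seeds differed from each other. miR-137-3p lies at chr2:209165767-209165789 and miR-137-5p at chr2:209165731-209165752, both on the plus strand inside the long non-coding RNA gene LOC120100931. miR-153-3p at chr6:144306646-144306667 and miR-153-5p at chr6:144306607-144306629 lie on the plus strand inside Ptprn2, which encodes a protein of secretory vesicles.

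miR-128-3p is made from a pair of precursors with an identical 3p arm, and reads of this arm cannot be assigned to either. The copy of Mir128-2 lies at chr8:120963807-120963827 on the minus strand inside Arpp21, and that of Mir128-1 at chr13:42251933-42251953 on the plus strand inside R3hdm1. The 5p arms differ between the loci and are listed separately, so they are printed here to show what tells the loci apart.
rno-miR-128-1-5p: cGGGGCCGuagcacugucuga
rno-miR-128-2-5p: gGGGGCCGaugcacuguaaga
Counted from the 5′ end, with the base of miR-128-1-5p first, the differences are C1G, U9A, A10U, C18A and U19A, which leaves the seed the same in both.

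The files list 10374120 to 12533029 miRNA reads per library, all of which were used as the library total. Of the 649 listed miRNAs, 336 had a mean of at least 10 RPM (reads scaled to a common library total) in the control or the BDNF libraries and were tested. They included 6 of the 7 members, and miR-153-5p stayed below the filter. Normalized RPM below are RPM after scaling by the trimmed mean of M values (TMM) over all miRNAs, and differences are on the log2 scale with the standard error (SE) of edgeR's quasi-likelihood fit. Of 19 miRNAs taken as markers of other cell types, 18 are listed in the files, and the leukocyte marker miR-223-3p is not. None of the 649 listed miRNAs was at 0 in every library, so the same holds for any listed marker. The 4 listed markers of microglia and other leukocytes summed to 3.95 to 5.50 RPM and both erythroid markers to 2.69 to 6.56 RPM, whereas the 7 members summed to 82299 to 96644 RPM. These were the lowest marker lists. The highest, reactive glia, summed to 5587 to 7495 RPM. Most of it was miR-21-5p, whose mean of 6596 RPM (rank 24) lay above that of miR-124-3p (5244 RPM, rank 27). The libraries are bulk samples, in which fewer cells of a type and less RNA per cell cannot be told apart.

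By mean RPM over the 6 libraries, the members of the 4 families ran from rank 2 of the 649 listed miRNAs to rank 469. miR-128-3p held rank 2 in every library, with 75697 to 88885 RPM, after miR-9a-5p, another brain-enriched miRNA, which had a mean of 295541 RPM. By mean RPM, miR-124-3p followed at rank 27 with 4785 to 5879 RPM, and miR-137-3p at rank 67 with 1018 to 1246 RPM. The guide of the fourth family, miR-153-3p, was far lower, at rank 276 by mean RPM with 19.6 to 40.4 RPM. A value in RPM is a share of the sequenced miRNA reads. Adapter ligation differs in efficiency between miRNAs and was not measured here, so the order is one of reads.

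Within every library miR-128-3p had 14.1 to 16.9 times as many reads as miR-124-3p, and miR-124-3p had 3.84 to 5.10 times as many as miR-137-3p. The passenger arm miR-124-5p, with a mean of 697 RPM, was more abundant than the guide miR-153-3p in all 6 libraries, by a factor of 13.5 to 42.0. miR-137-3p was also above miR-124-5p in all 6 libraries, by a factor of 1.35 to 2.04. The only neighbouring pair whose order was not fixed was miR-153-3p and miR-137-5p: miR-153-3p was higher in 4 libraries and lower in Control 3 and BDNF 3, where it had 0.849 and 0.868 reads for each read of miR-137-5p. miR-153-5p was at the bottom with 7 to 14 reads per library, a mean of 0.846 RPM.

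**Figure D1:**
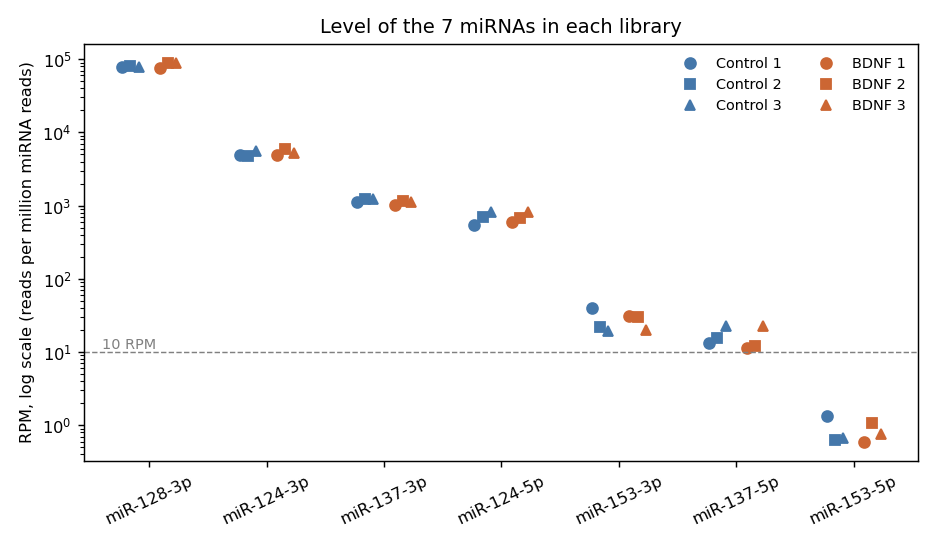
Level of each of the 7 miRNAs in the 6 libraries, in RPM on a log axis, with blue for control, orange for BDNF and the symbol for the replicate number; the dashed line marks the 10 RPM used as the filter. miR-128-3p lies between 75697 and 88885 RPM in all libraries and miR-153-5p at a mean of 0.846 RPM, and only miR-153-3p and miR-137-5p change places between libraries.

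Together the 7 members held 8.49%, 8.65% and 8.71% of all miRNA reads in the control libraries and 8.23%, 9.66% and 9.61% in the BDNF libraries. The ranges overlapped, since BDNF 1 had the lowest share of all 6 libraries. The mean was 8.62% ± 0.11 (SD, n = 3) in control and 9.17% ± 0.81 (SD, n = 3) in BDNF neurons, a difference of 0.552 percentage points with p = 0.4 in a two-sided exact permutation test, which cannot go below 0.1 with 3 against 3. Most of this share was miR-128-3p, with 7.57% to 8.89% of all reads.

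BDNF for 20 min was compared with vehicle for each member, to see whether the level of these neuronal miRNAs moved in the short stimulation. None of the 6 tested members passed an unadjusted p of 0.05 in edgeR's test, against 10 of all 336 tested miRNAs (2.98%), and their Benjamini-Hochberg adjusted p was 0.999 throughout. After adjustment no miRNA of the 336 passed (0%), with 10 at an unadjusted p under 0.05 in edgeR and 12 in DESeq2, of which 0 remained after adjustment. With the replicate number as a block, 69 of 336 miRNAs (20.5%) had an unadjusted p under 0.05, again with none of the 6 members among them. Control and BDNF values of every tested member overlapped, whereas 24 of the 336 (7.14%) had values that did not overlap between conditions.

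miR-128-3p had 78771, 83595 and 73417 normalized RPM in the control libraries and 81604, 91597 and 81928 in the BDNF libraries. It was higher with BDNF in each replicate number, by factors of 1.04, 1.10 and 1.12, and BDNF 1 and BDNF 3 lay within the control range. The direction in replicate 1 depends on the scaling, since by library total BDNF 1 had 75697 RPM and Control 1 had 78240 RPM. The log2 difference was 0.11 (SE 0.11, 95% interval -0.14 to 0.37, adjusted p = 0.999 by edgeR), and with the replicate block 0.11 (SE 0.06, 95% interval -0.03 to 0.26, adjusted p = 0.393 by edgeR). Being higher in all 3 replicate numbers was shared by 54 of the 336 tested miRNAs (16.1%).

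miR-124-3p had 5014, 5016 and 5192 normalized RPM in the control libraries and 5331, 6058 and 4854 in the BDNF libraries. The spread was smaller in control after TMM (SD 102 against 606, n = 3 each) but not by library total (SD 432 against 475 RPM, n = 3 each). After TMM, BDNF 3 was the lowest and BDNF 2 the highest of the 6 libraries. The log2 difference was 0.09 (SE 0.11, 95% interval -0.16 to 0.35). Its passenger miR-124-5p had 547, 743 and 761 normalized RPM in control and 642, 706 and 764 in BDNF neurons, with a log2 difference of 0.04 (SE 0.15, 95% interval -0.31 to 0.40). Control 1 was the lowest and BDNF 3 the highest library for this arm, and the conditions overlapped. The paper names miR-124-5p as affected by BDNF where it discusses isomiRs, variants of a miRNA that differ at their ends. Counts per mature miRNA pool such variants and cannot show a shift among them. The log2 differences with the replicate block were 0.09 for miR-124-3p and 0.05 for miR-124-5p (adjusted p = 0.596 and 0.736 by edgeR).

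miR-137-3p had 1116, 1306 and 1128 normalized RPM in control and 1097, 1188 and 1033 in BDNF neurons. It was lower with BDNF in each replicate number, with ratios of 0.983, 0.910 and 0.915, but BDNF 2 was higher than Control 1 and Control 3. Its log2 difference was -0.10 (SE 0.11, 95% interval -0.35 to 0.16), and -0.10 (SE 0.06, 95% interval -0.24 to 0.05) with the replicate block. The passenger miR-137-5p had 13.3, 16.6 and 21.3 normalized RPM in control and 12.2, 12.6 and 21.1 in BDNF neurons, also lower in each replicate number, with a log2 difference of -0.16 (SE 0.27, 95% interval -0.80 to 0.49). The log2 difference of miR-137-5p with the replicate block was -0.17 (adjusted p = 0.465 by edgeR). Both arms of miR-137 thus lay among the miRNAs that were lower in all 3 replicate numbers, which 80 of the 336 (23.8%) did.

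miR-153-3p had 40.7, 23.0 and 18.1 normalized RPM in control and 33.5, 30.8 and 18.3 in BDNF neurons. Both the highest and the lowest library were controls, and the BDNF values fell between them. The ratio of BDNF to control was 0.823, 1.34 and 1.01 by replicate number, and the log2 difference was 0.01 (SE 0.35, 95% interval -0.83 to 0.85). This interval was the widest of the 6 members, and with the replicate block it narrowed to -0.27 to 0.36. miR-153-5p, which was below the filter and had a log2 difference of -0.10 in a fit of all 649 listed miRNAs, had 1.35, 0.669 and 0.624 normalized RPM in control and 0.646, 1.10 and 0.697 in BDNF neurons.

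**Figure D2:**
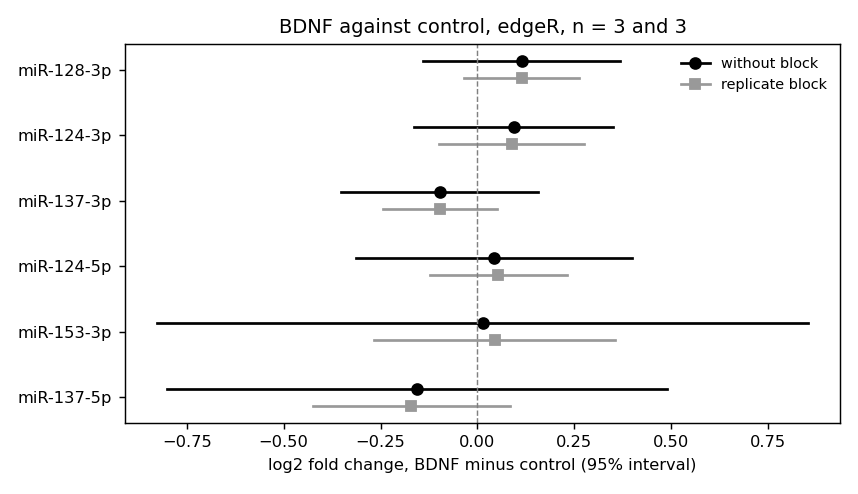
Log2 fold change of BDNF minus control by edgeR for the 6 tested members, in black without and in grey with the replicate number as a block. Bars are approximate 95% intervals built from edgeR's F statistic. All intervals include 0; that of miR-153-3p is the widest without the block (-0.83 to 0.85), and those of miR-128-3p are -0.14 to 0.37 without and -0.03 to 0.26 with it.

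The members differed from each other in how they varied between replicate numbers, each of which holds 1 control and 1 BDNF library. Of the 6 tested members, 3 differed between replicate numbers at an adjusted p under 0.05 in edgeR's test with condition in the model, and so did 162 of all 336 tested miRNAs (48.2%), so that the share among the members was near that of all miRNAs. The 3 were miR-153-3p, miR-137-5p and miR-124-5p. The 3 abundant guides did not pass: the adjusted p was 0.199 for miR-128-3p, 0.502 for miR-124-3p and 0.105 for miR-137-3p. However, miR-137-3p passed without Control 1 and without BDNF 1, fits that leave replicate 1 with 1 library. Its log2 differences of replicate 3 minus replicate 1 there were -0.061 and 0.017.

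miR-153-3p was lower in replicate 3 than in replicate 1 in both conditions. Its mean normalized RPM was 37.1 in replicate 1, 26.9 in replicate 2 and 18.2 in replicate 3, a span of 2.04-fold that was the 15th largest of the 336 tested miRNAs, whose median span was 1.26-fold. The log2 difference of replicate 3 minus replicate 1 was -1.03 (adjusted p = 0.0049 by edgeR). The libraries of replicate 3 had the lowest values of both conditions, and Control 3 and BDNF 3 lay next to each other. Without Control 3 the adjusted p was 0.0547 and without BDNF 3 it was 0.0514, with 1 library fewer in the fit.

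The passengers miR-137-5p and miR-124-5p were higher in replicate 3 than in replicate 1. miR-137-5p had a mean of 12.7, 14.6 and 21.2 normalized RPM in replicates 1, 2 and 3, a log2 difference of 0.74 between replicate 3 and replicate 1 (adjusted p = 0.0067 by edgeR), and both libraries of replicate 3 lay above all others. This rests on 132 to 272 reads per library, and the adjusted p was 0.0516 without BDNF 1 and 0.107 without BDNF 3. miR-124-5p had 595, 724 and 762 normalized RPM, a log2 difference of 0.36 (adjusted p = 0.031 by edgeR). Both libraries of replicate 1 were the lowest for this arm, and its adjusted p was 0.0501 without Control 1, 0.111 without Control 3 and 0.103 without BDNF 3.

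The guides of miR-128, miR-124 and miR-137 spanned 1.13-fold, 1.10-fold and 1.15-fold between replicate numbers, below the median span of 1.26-fold over all tested miRNAs. Their log2 difference of replicate 3 minus replicate 1 was -0.05, -0.04 and -0.04, but with scaling by the library total in place of TMM it was 0.12, 0.13 and 0.14, so its direction depends on the scaling. After TMM, replicate 2 had the highest mean for all 3 guides, with 87596 normalized RPM for miR-128-3p, 5537 for miR-124-3p and 1247 for miR-137-3p. By library total this order turned for miR-124-3p, which had 4785 and 5879 RPM in replicate 2 and 5612 and 5265 RPM in replicate 3.

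**Figure D3:**
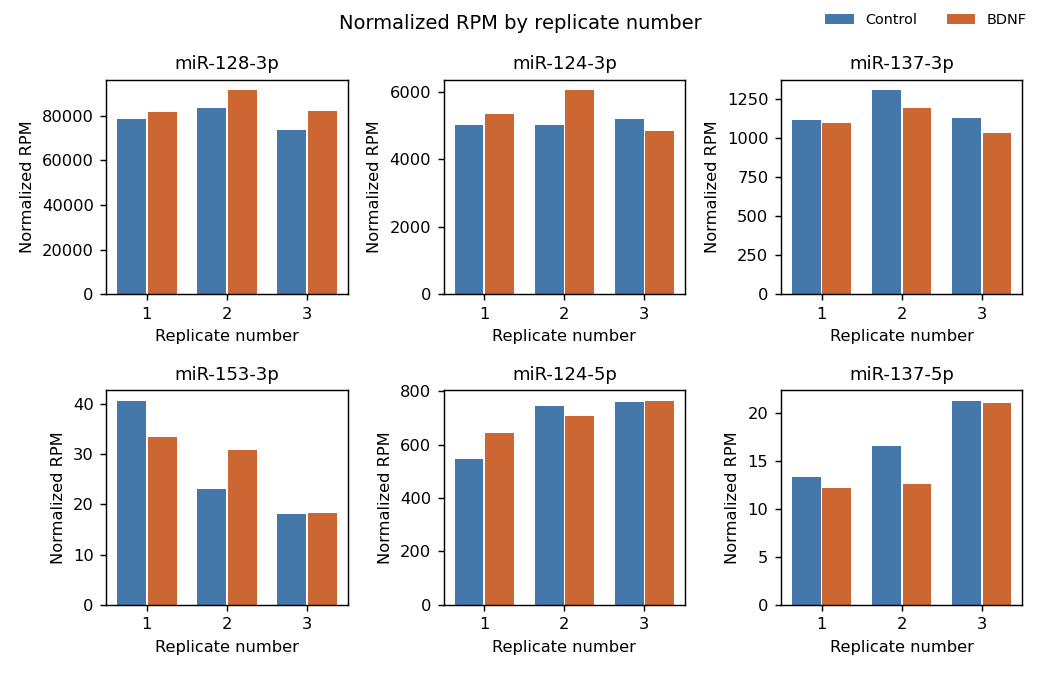
Normalized RPM of the 6 tested members by replicate number, 1 bar per library with blue for control and orange for BDNF; the vertical axes start at 0 and differ between panels. miR-153-3p is lowest in both libraries of replicate 3 (18.1 and 18.3), miR-137-5p is highest there (21.3 and 21.1), and the guides of miR-128, miR-124 and miR-137 span at most 1.15-fold between replicate means.

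Markers of other cell types also moved with the replicate number. The 18 listed markers summed to 7568, 6836 and 5816 RPM in control and 7757, 7249 and 5841 RPM in BDNF libraries 1, 2 and 3, so that the sum was lowest in replicate 3 in both conditions. Other lists went the opposite way: the 3 striated muscle markers summed to 10.9, 12.8 and 17.4 RPM in control and 11.7, 13.5 and 16.3 RPM in BDNF libraries 1, 2 and 3, and the liver marker miR-122-5p was also highest in replicate 3, with 14.6 and 16.3 RPM. All these sums are by library total, without TMM. After TMM miR-122-5p had a log2 difference of 0.18 between replicates 3 and 1 (adjusted p = 0.467 by edgeR), and the striated muscle markers were below the filter and not tested. Most of the sum over all lists was miR-21-5p, a miRNA of reactive glia and many dividing cells, whose log2 difference of replicate 3 minus replicate 1 was -0.58 (adjusted p = 0.0022 by edgeR). Brain-enriched miRNAs of a list described below moved in both directions between replicates 3 and 1. On the log2 scale miR-132-3p was higher in replicate 3 by 1.40 (adjusted p = 3.5e-05 by edgeR). Also higher were miR-212-3p (1.77) and miR-129-5p (1.43), whereas miR-488-3p (-0.65), miR-135a-5p (-0.62) and miR-9a-5p (-0.43) were lower. The part of these shifts in the values of miR-153-3p, miR-137-5p and miR-124-5p was not tested.

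The share of reads from each arm was compared next, since both arms come from the same precursors. miR-124 kept the most passenger: the 5p arm made up 9.84%, 12.9% and 12.8% of its reads in control and 10.8%, 10.4% and 13.6% in BDNF libraries, 11.8% ± 1.7 and 11.6% ± 1.7 (SD, n = 3 each). In miR-137 the 5p share was 1.18%, 1.25% and 1.85% in control and 1.10%, 1.05% and 2.00% in BDNF libraries. In miR-128, with both 5p arms summed, it was 0.0597% ± 0.0086 in control and 0.0574% ± 0.0059 in BDNF libraries (SD, n = 3 each), so that the 3p arm had 1513 to 2002 times as many reads. The dominance of the 3p arm therefore ran from 6.35-fold to 9.16-fold in miR-124 and from 49.0-fold to 94.2-fold in miR-137. miR-153, with 57 reads of its 5p arm in all 6 libraries, had 1.89% to 3.67% of its reads there, with a 95% Wilson interval of 1.62% to 6.72% in Control 3, the widest of the 6; such intervals cover counting error only.

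The balance of the arms was tested between BDNF and control in 3 of the 4 precursors. The log2 ratio of 5p to 3p reads changed by -0.03 (SE 0.18) in miR-124, -0.05 (SE 0.17) in miR-128 and -0.08 (SE 0.29) in miR-137, with an adjusted p of 0.971 for each by limma. None of the 3 passed an unadjusted p of 0.05, against 6 of 141 precursors (4.26%), nor with the replicate block, against 17 of 141 (12.1%). The block left these differences unchanged, with SE 0.12 in miR-124, 0.13 in miR-128 and 0.14 in miR-137. miR-153 stayed below the mean of 10 reads per arm that the test required.

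Between replicate numbers the arm balance of miR-137 differed. The log2 ratio of its 5p to its 3p arm was higher than in replicate 1 by 0.77 in replicate 3 and by 0.01 in replicate 2 (adjusted p = 0.021 by limma), so the higher miR-137-5p of replicate 3 was not matched by miR-137-3p. Such a difference was found in 14 of 141 precursors (9.93%), and among the members in miR-137 alone, with log2 differences of replicate 3 minus replicate 1 of 0.40 in miR-124 (adjusted p = 0.188 by limma) and 0.15 in miR-128 (adjusted p = 0.519 by limma). Without Control 1, Control 3, BDNF 1 or BDNF 3 the adjusted p for miR-137 was 0.260, 0.0931, 0.159 and 0.318. This comparison was added after the levels by replicate number had been seen.

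**Figure D4:**
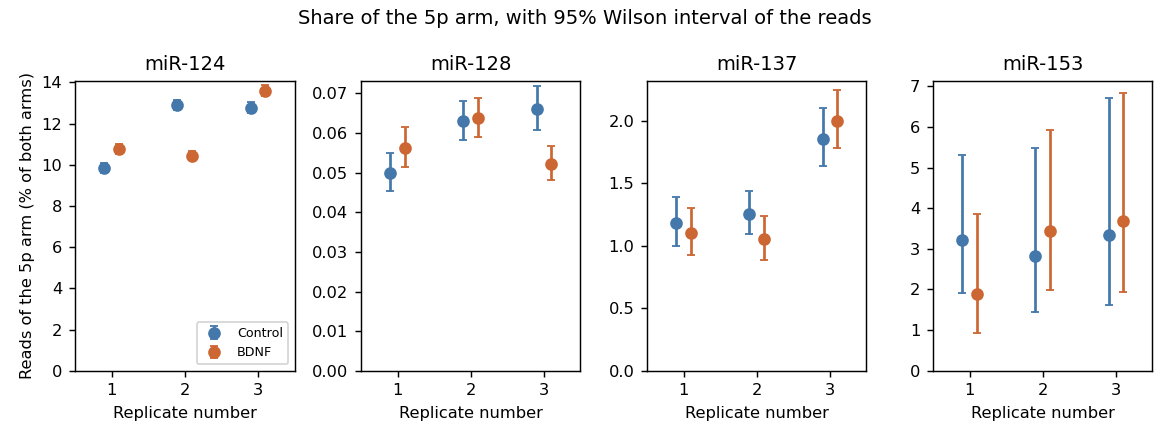
Percentage of reads from the 5p arm, of all reads of both arms, for each precursor and library by replicate number, with the 95% Wilson interval of the reads; axes start at 0 and differ between panels. The 5p share of miR-137 is highest in both libraries of replicate 3 (1.85% and 2.00%), that of miR-124 runs from 9.84% to 13.6%, and that of miR-153 rests on 57 reads in all.

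The 5p arms also give the only view of the 2 miR-128 loci. miR-128-2-5p, from the locus inside Arpp21, had a mean of 39.5 RPM and miR-128-1-5p, from the locus inside R3hdm1, a mean of 8.49 RPM. Mir128-2 gave 79.2%, 84.0% and 80.9% of the 5p reads in control and 84.9%, 86.4% and 77.2% in BDNF libraries, 81.3% ± 2.4 and 82.9% ± 4.9 (SD, n = 3 each). BDNF 3 had the lowest and BDNF 2 the highest share, with 95% Wilson intervals of 73.5% to 80.5% and 83.5% to 88.8%, and the conditions overlapped. These shares count passenger reads and do not show how the 3p reads divide between the loci.

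The miRNAs with profiles most like each guide over the 6 libraries were named by the root mean square difference of centred log2 normalized RPM, as a description without a test; all miRNAs of a library share its depth and scaling. For miR-137-3p these were miR-708-5p (0.026), miR-18a-5p (0.036) and miR-19b-3p (0.053), where the median over all tested miRNAs was 0.203. For miR-128-3p they were miR-3068-5p (0.041), miR-6331 (0.059) and miR-151-3p (0.066). miR-124-3p was most like miR-185-5p (0.071), miR-672-5p (0.083) and miR-128-3p (0.087), the only case in which a member was among the nearest of another. A flat profile, equal in all 6 libraries, would lie at 0.104 from miR-124-3p, so these were little closer than no pattern. It would lie at 0.105 from miR-137-3p, 0.096 from miR-128-3p and 0.434 from miR-153-3p. miR-153-3p was nearest to miR-362-3p (0.094), miR-181b-1-3p (0.126) and miR-101a-3p (0.130), against a median of 0.447, which is more than that of the other guides.

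A list of 18 other brain-enriched miRNAs was read beside the members, and all 18 were tested. None was higher and 1 was lower with BDNF at an unadjusted p under 0.05 in edgeR, beside 2.98% of all tested miRNAs: miR-551b-3p with a log2 difference of -0.46, and its adjusted p was 0.999. With the replicate block 1 was higher and 4 were lower at an unadjusted p under 0.05, beside 20.5% of all tested miRNAs in either direction. Their median log2 difference was -0.003, and that of all 336 tested miRNAs was -0.002. Between replicate numbers 13 of the 18 differed at an adjusted p under 0.05, beside 48.2% of all tested miRNAs, among them miR-9a-5p, miR-125b-5p and miR-181a-5p, while the abundant miR-7a-5p had an adjusted p of 0.0860 by edgeR.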

How the data were processed

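RNA of 3 control and 3 BDNF samples of cortical neurons was sequenced as small RNA libraries on a HiSeq2000. The authors trimmed the 3′ adapter, filtered reads by quality with the Fastx-Toolkit, aligned them to rat mature miRNAs of miRBase with Miraligner, which allows a mismatch and variable ends, and deposited raw read counts per mature miRNA and sample. Reads carry no molecular identifiers, and reads of identical arms from several loci are counted under 1 name.

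Groups and replicate numbers came from the sample titles. From the deposited counts (10374120 to 12533029 per library) RPM and TMM factors were computed, and miRNAs whose average reached 10 RPM (104 to 125 reads) under either condition were tested with edgeR 4.0.16 (R 4.3.3, glmQLFit and glmQLFTest), with Benjamini-Hochberg adjustment over all 336. Arm ratios, log2((5p + 0.5)/(3p + 0.5)), were fitted with limma 3.58.1 for precursors with a mean of at least 10 counts in each arm. The main fits of BDNF against control held the condition only and ignored the replicate numbers. The replicate block and the ratios by replicate number took these numbers as pairs. Deviations from the condition means correlated at 0.81, 0.49 and 0.89 between control and BDNF libraries of the same number, and at -0.78 to 0.24 otherwise. The paper describes the sequencing as 3 independent experiments, but no source used here says that libraries of 1 number share a culture. The p-values measure the spread between these samples. Libraries of 1 condition differed by far more than sampling noise (chi-square per degree of freedom at least 147).

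The members and lists were chosen with earlier results of these data known. Named miRNAs were the 7 members, the miR-128 5p arms, miRNAs sharing a member's seed, the most abundant miRNA, the 3 nearest profiles of each guide and the most abundant of each list. miR-21-5p, miR-132-3p, miR-212-3p, miR-129-5p, miR-488-3p, miR-135a-5p and miR-551b-3p, which belong to the lists, were named after their values were seen. miR-223-3p was named as the marker that the files do not list. Alternatives were the replicate block, library size scaling, no filter, DESeq2 1.42.0, other arm filters and leaving out each library. The main edgeR and limma fits, for BDNF and for replicate numbers, were tested on simulated data, and the alternatives were not. Unlike the data, the simulated counts for the BDNF fits had no differences between replicate numbers. Markers by list, in RPM over the 6 libraries, were 29.7 to 35.5 for oligodendrocytes, 5587 to 7495 for reactive glia, 72.0 to 101 for endothelium, 56.7 to 103 for smooth muscle and mesenchyme, 10.9 to 17.4 for striated muscle and 11.4 to 16.3 for liver.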

Additional observations from a re-analysis of the deposited data

How the results depend on the processing

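None of the 6 tested members passed an unadjusted p of 0.05 for BDNF under any alternative run: the replicate block, library size scaling, DESeq2, no filter or leaving out a library. The count of all miRNAs at an unadjusted p under 0.05 was 10, and was 69 with the replicate block (26 higher), 6 with library size scaling and 3 to 32 without 1 library each; for arm ratios it was 6, and 17 with the replicate block, 3 with both arms at 10 RPM and 4 to 20 without 1 library each. The replicate block changed no other call. Between replicate numbers, leaving out 1 library each gave 66 to 182 miRNAs and 0 to 3 members, with 0 members without BDNF 3 and 1 without Control 3; these fits have fewer samples. Directions turned for miR-153-3p with library size scaling (-0.020 in log2) and, with that scaling, for replicate 3 minus replicate 1 of miR-124-3p (0.13), miR-128-3p (0.12) and miR-137-3p (0.14); otherwise the cause was not tested. Without 1 library each, the BDNF difference ran from -0.20 to 0.44 for miR-153-3p, -0.067 to 0.14 for miR-124-5p, -0.46 to 0.051 for miR-137-5p and, with no change of sign, 0.0053 to 0.17 for miR-124-3p, 0.057 to 0.16 for miR-128-3p and -0.15 to -0.021 for miR-137-3p, that of the arm ratio from -0.18 to 0.047 for miR-124, -0.17 to 0.028 for miR-128 and -0.39 to 0.12 for miR-137, and replicate 3 minus replicate 1 from -0.15 to 0.10 for miR-124-3p, -0.10 to 0.028 for miR-128-3p, -0.061 to 0.017 for miR-137-3p and -0.068 to 0.36 for the miR-128 arm ratio. The members' share was higher with BDNF by 0.304 to 1.02 percentage points without 1 library each, and by 1.09 without the reads of miR-9a-5p. The values of miR-153-5p rest on 7 to 14 reads per library.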
